A study of Homo sapiens with 12 samples.

Results

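The complement genes C3, CFB, CFD, CFI, C1R, C1S, SERPING1, CD55 and CD59 were followed in human adipocytes after knockdown (KD) of the long intergenic non-coding RNA linc-ADAIN and after lipopolysaccharide (LPS). They are 9 of 28901 gene names in the deposited count table and were taken by symbol. All 9 passed the filter on low counts in every comparison. The question of the study's design is how loss of linc-ADAIN and LPS, alone and together, change the adipocyte transcriptome.

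Complement is a cascade of serum and membrane proteins that tags targets by depositing fragments of C3 and ends in a pore in the target membrane. The classical pathway starts with C1, in which the proteases encoded by C1R and C1S are held in check by C1 inhibitor, the product of SERPING1. The alternative pathway amplifies C3 cleavage through factor B (CFB), which is cut by factor D (CFD), while factor I (CFI), CD55 and CD59 limit the cascade. Factor D is also called adipsin and is a protein that mature adipocytes secrete in large amounts.

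The cells were ASC52telo hTERT adipocytes after 14 days in culture, made from a line of human adipose-derived mesenchymal stem cells immortalized with telomerase. Every group carried a lentiviral pLVX-shRNA2 vector with ZsGreen and had been sorted for ZsGreen. The differentiation medium held insulin, dexamethasone, isobutylmethylxanthine, rosiglitazone, pantothenate and biotin, and the maintenance medium of the second week left out isobutylmethylxanthine and rosiglitazone, so dexamethasone was present throughout. The groups were scramble shRNA, scramble shRNA with LPS at 100 ng/mL for 4 h, linc-ADAIN shRNA (KD), and linc-ADAIN shRNA with the same LPS treatment, with 3 libraries each. A figure legend describes the RNA-seq of KD and scramble as a single experiment in triplicate, and the sources used here do not say whether the libraries with LPS came from separate cultures. The p-values therefore measure only the spread between these libraries, which may be technical. linc-ADAIN itself was not analysed here, so the KD was not checked in these libraries. The methods list a single hairpin sequence against linc-ADAIN and a single scramble sequence. Effects of the hairpin itself or of the sorted cells therefore cannot be told apart from loss of linc-ADAIN.

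Poly(A) RNA was sequenced, and estimated counts from kallisto, one value per gene and library, were deposited. Counts on named genes totalled 28.4 to 53.8 M (units of 1e6) per library, and libraries of 1 group correlated at r = 0.971 to 0.986 on the log2 scale. Values below are counts per 1e6 counts (CPM) after TMM scaling, which corrects for library size and composition. Adjusted p-values are from edgeR's quasi-likelihood test over all genes tested, with 0.05 as the threshold. The 9 genes together took 0.446% to 0.530% of the counts of a scramble library, 0.453% to 0.604% with LPS, 0.281% to 0.302% of a KD library and 0.282% to 0.309% with both. In bulk RNA, fewer cells of a type and less RNA per cell cannot be told apart.

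Promoters are shown for CFB, which had the largest response to LPS among the 9 genes, and CFD, which had the largest response to linc-ADAIN KD. The RefSeq table of promoters (GRCh38.p14) held 6 of the 9 genes, namely CFB, CFD, CFI, C1R, CD55 and CD59. Each sequence is the 250 bases before the transcription start, 5′ to 3′ on the gene's strand, at chr6:31945845-31946094 (plus strand) for CFB and chr19:859414-859663 (plus strand) for CFD. Capitals mark the matches to 5 motifs searched on both strands.
CFB: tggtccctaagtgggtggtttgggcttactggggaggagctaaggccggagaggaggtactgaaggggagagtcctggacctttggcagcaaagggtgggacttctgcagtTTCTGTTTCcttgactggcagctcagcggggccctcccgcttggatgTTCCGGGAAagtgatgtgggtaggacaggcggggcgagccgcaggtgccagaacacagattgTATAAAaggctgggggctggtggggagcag
CFD: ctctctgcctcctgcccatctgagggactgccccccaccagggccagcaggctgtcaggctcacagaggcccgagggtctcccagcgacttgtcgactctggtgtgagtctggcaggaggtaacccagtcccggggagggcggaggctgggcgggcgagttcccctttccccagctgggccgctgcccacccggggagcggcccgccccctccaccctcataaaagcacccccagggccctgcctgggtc
The first run of capitals in CFB matches the core of an interferon-stimulated response element, GAAANNGAA, on the minus strand at bases -139 to -131 from the start. The second matches a gamma-activated site, TTCNNNGAA, at bases -92 to -84, and the third is a TATA box, TATAAA, at bases -30 to -25. Among 35116 promoters of the same length, 6.88% held GAAANNGAA, 6.57% held TTCNNNGAA and 10.7% held TATAAA. The other letters searched were a kappa-B core, GGNNTTTCC, found in 5.48% of the promoters, and a C/EBP core, TTGCNNAA, found in 9.05%. CFD matched none of the 5 motifs in this window. Of the other promoters, CD59 held a gamma-activated site at bases -184 to -176, C1R held a C/EBP core at bases -106 to -99, and CFI and CD55 held no match. The matches are letters in a window and not measured binding sites.

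linc-ADAIN KD without LPS lowered CFD, SERPING1 and C1R by more than 2-fold, and C1S fell by a smaller amount. None of the 9 was higher. Thus 4 of 9 genes passed the test, all lower, while 27.2% of all 16217 genes tested passed and 15.1% passed as lower. With at least a 2-fold difference as well, 3 of the 9 passed, all lower, and 7.77% of all genes did (4.28% higher and 3.49% lower). The groups did not overlap for 6 of the 9 genes and for 42.5% of all genes. The median log2 fold change was -0.33 for the 9 genes and 0.02 for all genes tested.

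After LPS, 7 of 9 genes differed between KD and scramble control, against a background of 26.9% of 15981 genes. CFD, SERPING1, C1R and C1S were lower, and C3, CFB and CD55 were higher, beside 14.2% of all genes lower and 12.7% higher. Those with at least a 2-fold difference were again CFD, SERPING1 and C1R, all lower, beside 8.48% of all genes (4.58% higher and 3.9% lower). Groups did not overlap for 7 of the 9 genes and for 40.6% of all genes. The median was -0.31 for the 9 genes and 0.03 for all genes.

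**Figure D1:**
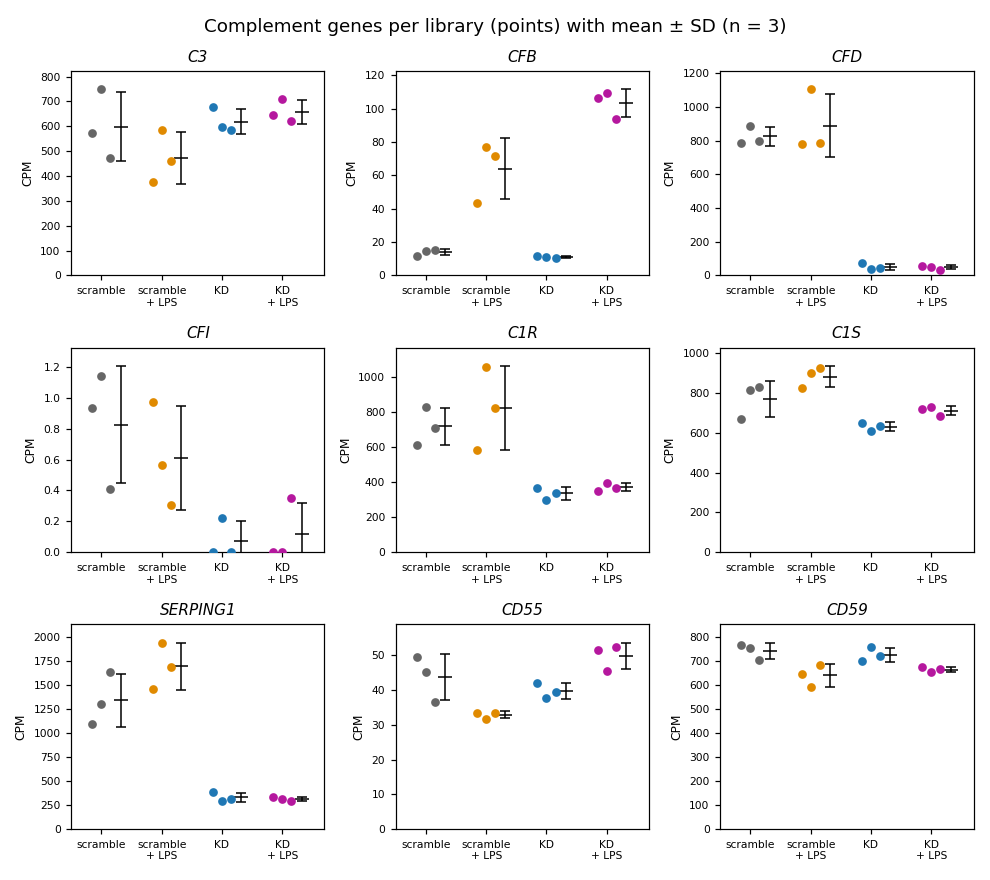
CPM of the 9 complement genes in each of the 12 libraries (points, 3 per group), with the group mean and SD beside them (bars); each panel has its own axis, which starts at 0. CFD lies between 777 and 1104 CPM in the 6 scramble libraries and between 33.5 and 70.8 CPM in the 6 KD libraries, while CFB is high in the libraries with LPS.

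Factor D, the protease that cuts factor B, showed the largest difference of the 9 genes. CFD stood at 786, 887 and 800.1 CPM in the scramble libraries and at 70.8, 38.6 and 42.2 CPM in the KD libraries. With LPS the values were 777, 1104 and 783 CPM in scramble and 56.5, 52.2 and 33.5 CPM in KD. Every KD library lay far below every scramble library, with LPS or without, and LPS left the groups of each shRNA overlapping. CFD was 16.3-fold lower in KD without LPS (log2 fold change -4.03, standard error 0.200, adjusted p = 9.8e-08). The fall with LPS was 18.7-fold (log2 fold change -4.22, standard error 0.191, adjusted p = 3.4e-09). The change of CFD with LPS was 0.12 in scramble (95% confidence interval -0.15 to 0.39) and -0.09 in KD (-0.54 to 0.36). The gene lies on chromosome 19 of GRCh38 from 859453 to 867884 on the plus strand, and its canonical transcript of 5 exons, which ends at 863641, does not reach the neighbouring gene MED16, which starts at 867630. MED16 itself had a log2 fold change of -0.07 without LPS (adjusted p = 0.70).

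Because adipsin marks mature adipocytes, CFD was set beside 12 adipocyte markers. Their summed level was 3615 to 4930 CPM in scramble, 4143 to 4909 CPM in scramble with LPS, 788 to 2142 CPM in KD and 642 to 1379 CPM in KD with LPS. Of the 12, 9 were lower in KD without LPS and 10 were lower with LPS, and none was higher. Of all genes, 15.1% were lower without LPS and 14.2% with LPS. LEP, which encodes leptin, and LPL, the lipoprotein lipase gene, were near 0 in these cells, at no more than 2.36 CPM in any library. ADIPOQ, the adiponectin gene, stood at 729.5, 887 and 1141 CPM in scramble and at 514, 392 and 142 CPM in KD, which is -1.39 on the log2 scale (standard error 0.340, adjusted p = 0.0094). FABP4, the fatty acid carrier of adipocytes, fell by 1.65 on the log2 scale without LPS and by 2.26 with LPS. PPARG, the master transcription factor of adipogenesis, fell by 0.87 and 1.59 in the same comparisons. The paper reports the opposite direction for KD adipocytes of the same line and culture time. By qPCR and western blot, it describes higher PPARG, FABP4 and adiponectin, among other adipogenic markers. The source of this difference was not tested. The 95% interval of CFD without LPS, -4.46 to -3.59, lay below that of each of the 10 adipocyte markers that averaged 50 counts or more, the lowest of which reached -2.24 for FABP4. The ratio of CFD counts to ADIPOQ counts within a library was 0.701 to 1.08 in scramble and 0.0985 to 0.297 in KD. With LPS it was 0.680 to 0.832 in scramble and 0.161 to 0.259 in KD. The ratio was chosen after the values were seen and is a description. The part of any change in adipocyte content in the fall of CFD was not tested.

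**Figure D2:**
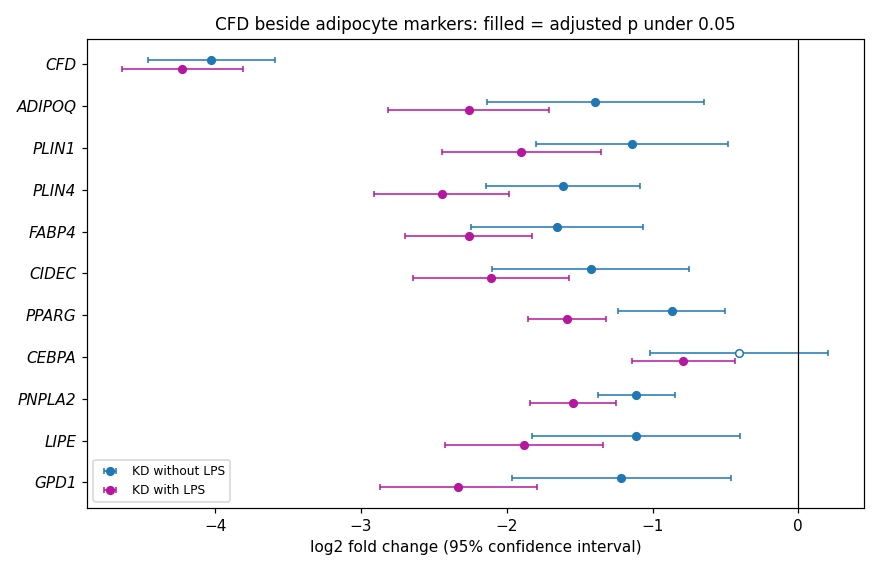
Log2 fold change of linc-ADAIN KD against scramble control with its 95% confidence interval (bars) for CFD and the 10 adipocyte markers that averaged 50 counts or more, without LPS and with LPS; filled points passed an adjusted p of 0.05. CFD sits at -4.03 and -4.22, and the adipocyte markers sit between -2.45 and -0.41.

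The classical pathway genes fell unequally. SERPING1, which encodes C1 inhibitor, was at 1087, 1295 and 1632 CPM in scramble and at 385, 289 and 314 CPM in KD. After LPS it was at 1451, 1934 and 1688 CPM in scramble and at 330, 315 and 295.5 CPM in KD. The KD libraries were the lower ones in both settings, and no groups of different shRNA overlapped. SERPING1 was 4.05-fold lower without LPS (log2 fold change -2.02, standard error 0.146, adjusted p = 1.2e-06) and 5.40-fold lower with LPS (-2.43, standard error 0.0985, adjusted p = 1.7e-09). Its response to LPS was 0.35 in scramble (adjusted p = 0.13) and -0.07 in KD (adjusted p = 0.74). In scramble it passed the test by DESeq2 (adjusted p = 0.042) and with scramble replicate 3 left out (0.52, adjusted p = 0.024). The gene lies on chromosome 11 from 57597387 to 57619171 on the plus strand.

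C1R, the protease that activates C1s, was at 614.5, 830.5 and 713 CPM in scramble and at 369, 299 and 340 CPM in KD. With LPS it was at 582, 1062 and 827 CPM in scramble and at 352, 399 and 366 CPM in KD. Scramble libraries with LPS spread the widest, and each of them still lay above the KD libraries. The log2 fold change of KD was -1.09 without LPS (standard error 0.112, adjusted p = 2e-05) and -1.15 with LPS (standard error 0.156, adjusted p = 8.9e-05). C1S, the protease that cleaves C4 and C2, was at 668, 817 and 829 CPM in scramble and at 651, 607 and 634 CPM in KD. With LPS it was at 823, 899 and 925 CPM in scramble and at 721, 729 and 686 CPM in KD. The scramble and KD groups did not overlap, but without LPS the lowest scramble library and the highest KD library were close. C1S fell by 0.29 on the log2 scale without LPS (standard error 0.089, adjusted p = 0.032) and by 0.31 with LPS (standard error 0.070, adjusted p = 0.0046). The call without LPS was lost when any KD library was left out (adjusted p = 0.054, 0.090 and 0.072 without replicates 1, 2 and 3). It was also lost without scramble replicate 2 (0.13) or 3 (0.093), and when libraries were scaled by size only (0.15) or by upper quartile (0.086). The response to LPS was 0.21 for C1R in scramble (adjusted p = 0.51) and 0.15 in KD (0.33), and for C1S it was 0.21 in scramble (0.18) and 0.18 in KD (0.098), where DESeq2 gave 0.028.

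C1R and C1S lie next to each other on chromosome 12, C1S from 6988259 to 7071032 on the plus strand and C1R from 7080214 to 7092540 on the minus strand. C1RL, a related protease gene, overlaps the C1R transcript on the annotation and had a log2 fold change of -0.03 (95% confidence interval -0.21 to 0.15) without LPS and -0.04 (-0.23 to 0.14) with LPS. Ratios of counts within a library do not depend on the scaling, and the following were chosen after the values were seen and are descriptions. C1R counts per C1S count were 0.920, 1.02 and 0.860 in scramble and 0.567, 0.493 and 0.536 in KD, and 0.708, 1.18 and 0.895 in scramble with LPS and 0.488, 0.547 and 0.533 in KD with LPS. C1S counts per SERPING1 count were 0.614, 0.631 and 0.508 in scramble and 1.69, 2.10 and 2.02 in KD. With LPS these were 0.567, 0.465 and 0.548 in scramble and 2.186, 2.32 and 2.32 in KD. Thus the mRNA of the C1s protease stood 3.31-fold higher against that of its inhibitor in KD without LPS and 4.34-fold higher with LPS. The protein levels were not measured in these files.

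**Figure D3:**
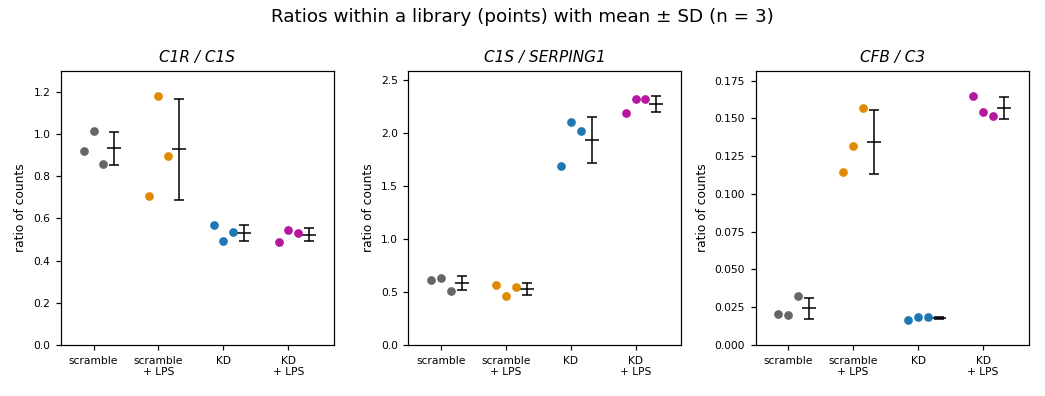
Ratio of the counts of 2 genes within each of the 12 libraries (points, 3 per group) with the mean and SD (bars); the axes start at 0 and the counts are not corrected for transcript length. C1R per C1S is lower in the 6 KD libraries (0.488 to 0.567) than in the 6 scramble libraries (0.708 to 1.18), C1S per SERPING1 is higher in KD, and CFB per C3 is higher with LPS.

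Among the 9 genes, factor B alone responded to LPS by at least 2-fold, in both shRNA groups. In LPS-treated scramble cells, 2 of the 9 genes passed the test, CFB as higher and CD55 as lower, beside 14.3% of 15920 genes (5.9% higher and 8.38% lower). In LPS-treated KD cells, 2 of the 9 passed, CFB and CD55 both as higher, beside 11.3% of 16169 genes (5.32% higher and 6.03% lower). CFB passed with at least a 2-fold difference in both, as 2.68% of all genes did in scramble (1.4% as higher) and 2.25% in KD (1.3% as higher). Groups did not overlap for 3 of the 9 genes in scramble (32.1% of all genes) and 4 in KD (27.3% of all genes). The 7 LPS response markers, among them CXCL8, IL6 and TNFAIP3, all rose in both shRNA groups, and their summed level was between 464 and 544 CPM in scramble, 1648 and 1886 CPM in scramble with LPS, 889 and 939 CPM in KD, and 3715 and 4120 CPM in KD with LPS.

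CFB was at 11.8, 14.7 and 15.3 CPM in scramble and at 43.2, 76.8 and 71.9 CPM after LPS. In KD it was at 11.3, 11.1 and 10.7 CPM and went to 106, 110 and 94.0 CPM after LPS. All libraries with LPS lay above all without it, and all KD libraries with LPS lay above all scramble libraries with LPS. The rise with LPS was 4.62-fold in scramble (log2 fold change 2.21, standard error 0.191, adjusted p = 1.5e-05) and 9.35-fold in KD (3.23, standard error 0.101, adjusted p = 3.1e-11). Without LPS the KD libraries were all below the scramble libraries, with a log2 fold change of -0.33 (95% confidence interval -0.63 to -0.04, adjusted p = 0.093), which passed only with scramble replicate 1 left out (-0.44, adjusted p = 0.045). With LPS, CFB was 1.62-fold higher in KD (log2 fold change 0.69, standard error 0.164, adjusted p = 0.0062). The gene lies on chromosome 6 from 31945650 to 31952086 on the plus strand.

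C3, the central protein that all pathways cleave, did not follow CFB. It was at 572, 748 and 474 CPM in scramble, at 377, 584 and 459 CPM in scramble with LPS, at 676, 597 and 584 CPM in KD and at 644, 711 and 620 CPM in KD with LPS. Only the 2 groups with LPS were apart, with the KD libraries above the scramble libraries. C3 was 1.39-fold higher in KD with LPS (log2 fold change 0.48, standard error 0.124, adjusted p = 0.011), and the call was lost without replicate 2 of KD with LPS (0.41, adjusted p = 0.064). Without LPS the log2 fold change was 0.05, with a 95% confidence interval of -0.24 to 0.35. The response of C3 to LPS was -0.32 in scramble (-0.70 to 0.05) and 0.09 in KD (-0.08 to 0.25), neither past the test (adjusted p = 0.25 and 0.56). CFB counts per C3 count were 0.0197 to 0.0323 in scramble, 0.0168 to 0.0186 in KD, 0.114 to 0.157 in scramble with LPS and 0.152 to 0.165 in KD with LPS. C3 lies on chromosome 19 from 6677704 to 6730562 on the minus strand.

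The membrane regulators CD55 and CD59 differed from each other. CD55, or decay-accelerating factor, takes apart the enzymes that cleave C3, and CD59 blocks assembly of the membrane pore. CD55 was at 49.4, 45.2 and 36.5 CPM in scramble, at 33.4, 31.8 and 33.5 CPM in scramble with LPS, at 42.1, 37.7 and 39.4 CPM in KD and at 51.6, 45.45 and 52.3 CPM in KD with LPS. Without LPS the groups of the 2 shRNAs overlapped, and with LPS every KD library was above every scramble library. CD55 was 1.51-fold higher in KD with LPS (log2 fold change 0.60, standard error 0.096, adjusted p = 0.00039) and differed by -0.13 without LPS (95% confidence interval -0.38 to 0.11).

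LPS lowered CD55 in scramble by 0.40 on the log2 scale (standard error 0.110, adjusted p = 0.032) and raised it by 0.33 in KD (standard error 0.099, adjusted p = 0.049). Both calls lay near the threshold and were lost when any of several libraries was left out. The one in scramble was lost without scramble replicate 1 (adjusted p = 0.14) or 2 (0.13) and without any of the libraries with LPS (0.056, 0.082 and 0.085 without replicates 1, 2 and 3). The one in KD was lost without any KD library without LPS (0.077, 0.13 and 0.12 without replicates 1, 2 and 3), without replicate 1 (0.16) or 3 (0.18) of KD with LPS, and when libraries were scaled by size only (0.093).

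CD59 was at 767, 756 and 706 CPM in scramble, at 647, 592 and 684 CPM in scramble with LPS, at 700.1, 759 and 723 CPM in KD and at 675, 653 and 668 CPM in KD with LPS. Values with LPS lay below those without it for each shRNA, with log2 fold changes of -0.20 in scramble (adjusted p = 0.12) and -0.13 in KD (adjusted p = 0.25). The change in scramble passed by DESeq2 (adjusted p = 0.045) and in the fit on all 12 libraries (0.049). The difference of CD59 in KD was -0.03 without LPS (95% confidence interval -0.18 to 0.13) and 0.05 with LPS (-0.10 to 0.21), and the sign without LPS turned when libraries were scaled by size only (0.078) or by upper quartile (0.033). CD55 lies on chromosome 1 from 207321519 to 207386804 on the plus strand, and CD59 lies on chromosome 11 from 33703010 to 33736479 on the minus strand.

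CFI, the protease that inactivates C3b, was near the limit of detection. Its counts were 49, 60 and 19 in scramble, 38, 17 and 13 in scramble with LPS, 0, 12 and 0 in KD and 0, 0 and 10 in KD with LPS. In the 4 KD libraries at 0, a count of 0 allows up to 3 counts. Without LPS the KD libraries lay below all scramble libraries, with an adjusted p of 0.055, and with LPS the adjusted p was 0.24. The comparison without LPS passed by DESeq2 (adjusted p = 0.011), with no filter on low counts (0.020) and with edgeR's own filter (0.038). Without KD replicate 2, the one with 12 counts, the adjusted p was 0.0051, and without replicate 3 of KD with LPS, the one with 10 counts, it was 0.015. CFI lies on chromosome 4 from 109731008 to 109802150 on the minus strand.

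Whether KD changed the response to LPS was tested as an interaction on all 12 libraries. CFB and CD55 passed, 2 of the 9 genes, both with a higher value, beside 1.28% of 17173 genes (0.943% higher). The difference of the KD effects, with LPS minus without, was 1.03 for CFB (standard error 0.225, adjusted p = 0.030) and 0.73 for CD55 (standard error 0.148, adjusted p = 0.018) on the log2 scale. The call of CFB was lost without scramble replicate 2 (adjusted p = 0.090) or 3 (0.057), without any KD library without LPS (0.068, 0.063 and 0.056 without replicates 1, 2 and 3), and without replicate 1 (0.066) or 2 (0.078) of KD with LPS. The call of CD55 was lost without scramble replicate 1 (0.053) or 2 (0.062) and without replicate 1 (0.052) or 3 (0.057) of KD with LPS. For C3 the difference was 0.43 (95% confidence interval -0.01 to 0.86, adjusted p = 0.46), and for SERPING1 it was -0.41 (-0.80 to -0.02, adjusted p = 0.42). C1R, C1S, CFD and CD59 had differences between -0.19 and 0.08, with adjusted p-values of 0.85 or more, and CFI had a difference of 0.86 with a standard error of 1.89.

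**Figure D4:**
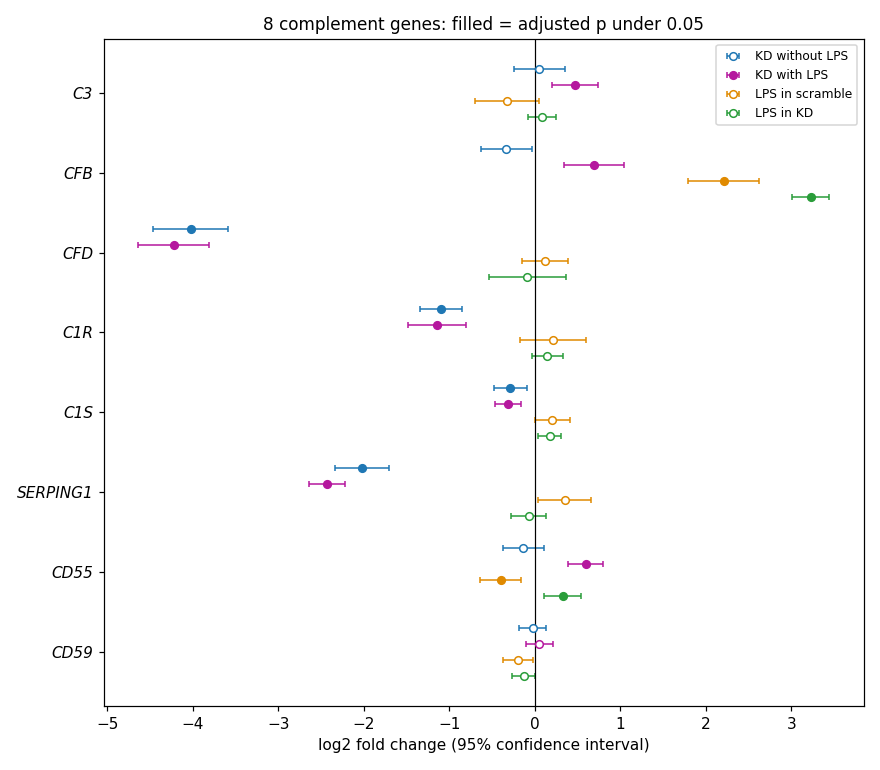
Log2 fold change with its 95% confidence interval (bars) for 8 of the 9 genes in the 4 comparisons of groups; filled points passed an adjusted p of 0.05, and CFI is left out because most KD libraries were at 0 counts. CFD, SERPING1 and C1R lie at -1 or below for KD and near 0 for LPS, while CFB lies at 2.21 and 3.23 for LPS.

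Levels of different genes can be compared only per transcript length, here as CPM per kilobase (kb) of the canonical transcript of GENCODE release 44. In scramble the order was SERPING1 (731 ± 150.3, SD, n = 3), CFD (692 ± 46.2), C1R (289 ± 43.5), C1S (288 ± 33.5), C3 (114 ± 26.6), CD59 (98.3 ± 4.34), CD55 (16.9 ± 2.54), CFB (5.64 ± 0.755) and CFI (0.418 ± 0.191). SERPING1 and CFD overlapped between libraries, as did C1R and C1S, and C3 and CD59. In KD the order was C1S (235 ± 8.27), SERPING1 (180.0 ± 27.4), C1R (135 ± 14.1), C3 (118 ± 9.58), CD59 (96.2 ± 3.89), CFD (42.4 ± 14.8), CD55 (15.4 ± 0.850), CFB (4.46 ± 0.134) and CFI. C1R and C3 overlapped in KD, and CFD stood sixth in place of second. With LPS, CFB passed CD55 in scramble (25.8 ± 7.34 against 12.7 ± 0.377 CPM per kb), and in KD with LPS it reached 41.7 ± 3.32 CPM per kb, where its libraries overlapped with those of CFD (39.8 ± 10.3).

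Among 46 other complement genes, the share that passed with KD was close to that of all genes. Of the 29 tested without LPS, 4 were higher and 5 were lower, beside 12.1% and 15.1% of all genes, and DESeq2 called 11 where edgeR called 9. Of the 28 tested with LPS, 4 were higher and 4 were lower, beside 12.7% and 14.2% of all genes, and DESeq2 also called 8. The median log2 fold changes were 0.49 and 0.41, against 0.02 and 0.03 for all genes, but most of these genes had few counts. The 10 that averaged 50 counts or more had medians of 0.0079 without LPS and 0.14 with LPS, and the rest had medians of 0.76 and 0.83. Higher without LPS were C7, C4A, C6 and ITGB2, and lower were VTN, CLU, MASP1, CD46 and CPN2. With LPS, COLEC12 passed as higher and C6 did not, and CPN2 did not pass as lower. ITGB2 and CPN2 had under 50 counts on average and are named because they are among these few.

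C7, a part of the membrane pore, went from 1.92, 1.84 and 2.49 CPM to 6.31, 6.35 and 9.04 CPM without LPS, a log2 fold change of 1.80 (adjusted p = 0.00013).

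C4A, the substrate of C1s, had a log2 fold change of 1.57 (adjusted p = 0.0011) without LPS, from 1.25 to 2.09 CPM in scramble to 4.10 to 5.99 CPM in KD. C4A and C4B are near-identical copies, so which one the reads came from is uncertain. CLU, a fluid phase regulator that binds the forming pore, went from 116, 137 and 162 CPM to 37.5, 36.4 and 34.0 CPM, a log2 fold change of -1.94 (adjusted p = 2.8e-07). VTN, which acts at the same step, fell by 3.15 from 2.28 to 2.72 CPM to 0.0576 to 0.469 CPM (adjusted p = 0.0011). MASP1, a lectin pathway protease gene related to C1R and C1S, fell by 0.84 (adjusted p = 0.00012), and CD46, a membrane cofactor of factor I, fell by 0.46 (adjusted p = 0.0030). C6, another part of the pore, rose by 1.01 without LPS (adjusted p = 0.014) and had 0.83 with LPS (0.097), and C5, which starts pore assembly, had 0.49 without LPS (0.051) and 0.34 with LPS (0.22). COLEC12, a collectin that acts as a scavenger receptor, had 0.05 without LPS (0.85) and rose by 0.32 with LPS (0.035).

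With LPS in scramble 1 of 29 passed by edgeR, MASP1 as higher (0.34, adjusted p = 0.035), and 2 passed by DESeq2, beside 14.3% of all genes by edgeR. In KD 0 of 26 passed by edgeR, with 2 at an unadjusted p under 0.05, and 0 passed by DESeq2, beside 11.3% of all genes. In the interaction 0 of 32 passed by edgeR, with 2 at an unadjusted p under 0.05, and 0 passed by DESeq2, beside 1.28% of all genes. The C1q genes C1QA, C1QB and C1QC, which encode the recognition part of C1 and are made mainly by myeloid cells, had 0 to 6 counts in every library.

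**Figure D5:**
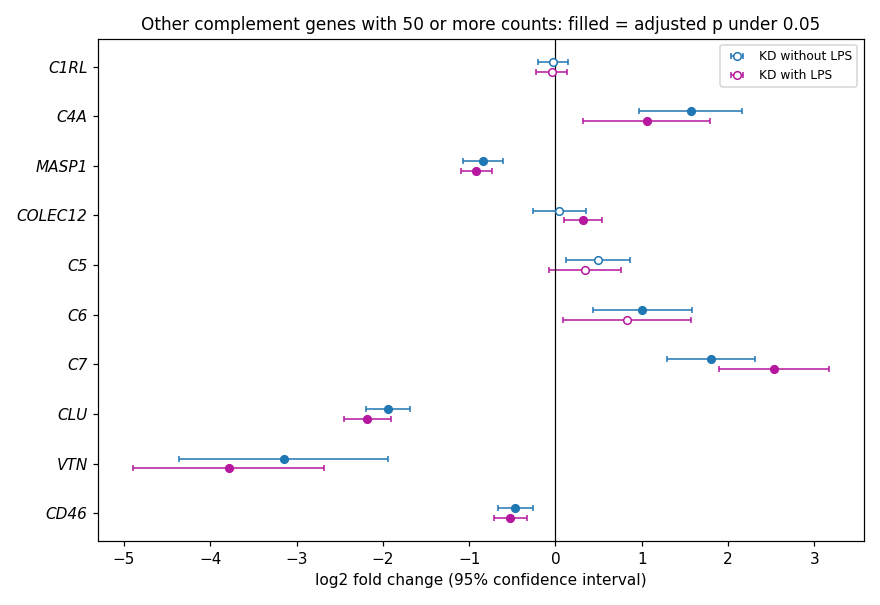
Log2 fold change of linc-ADAIN KD against scramble control with its 95% confidence interval (bars) for the 10 other complement genes that averaged 50 counts or more, without LPS and with LPS; filled points passed an adjusted p of 0.05. C7 lies at 1.80 and 2.53, CLU and VTN lie at -1.94 or below, and C1RL lies near 0.

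Among 6 transcription factor genes known to act on complement genes, 1 was higher in KD without LPS (3 passed by DESeq2). The share of all genes that passed as higher by edgeR was 12.1%. With LPS, 4 of the 6 were higher and 1 was lower, beside 12.7% and 14.2% of all genes. IRF1, an interferon response factor, stood at 8.85, 11.5 and 10.1 CPM in scramble and at 18.7, 14.5 and 18.7 CPM in KD (log2 fold change 0.77, adjusted p = 0.0021). With LPS, IRF1 was higher by 1.03, CEBPB by 0.68, CEBPD by 0.44 and NFKB1 by 0.28, and STAT3 fell by 0.29. LPS raised NFKB1 (1.29), CEBPD (1.42) and IRF1 (1.73) in scramble, and NFKB1 (1.67), CEBPD (1.98), IRF1 (1.98), CEBPB (0.52) and RELA (0.36) in KD. Of all genes, 5.9% passed as higher with LPS in scramble and 5.32% in KD. In the interaction 0 of the 6 passed by edgeR, with 5 at an unadjusted p under 0.05, and 1 passed by DESeq2. The share of all genes passing by edgeR was 1.28%.

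Markers of other cell types that make complement were counted in the same libraries. The 9 macrophage markers summed to 59.0 to 62.5 CPM in scramble, 61.8 to 74.6 CPM with LPS, 89.6 to 121 CPM in KD and 82.1 to 110.4 CPM with both. Of the 6 tested without LPS, CD163 was higher (log2 fold change 3.99, from 4.33 ± 1.12 to 68.6 ± 13.7 CPM, SD, n = 3) and CD68 was lower (-0.78). These markers did not move as one. CD163 had 98 to 3672 counts per library, CD68 had 790 to 2959 and FCER1G had 34 to 185. CSF1R had 0 to 60 counts, LYZ 0 to 17, PTPRC 0 to 12, MRC1 0 to 10 and ITGAM 0 to 6, and TYROBP was at 0 counts in all libraries. The 5 hepatocyte markers summed to at most 5.13 CPM, with TTR at 0 counts in all libraries and ALB at 0 to 13. The 5 endothelial markers summed to 23.9 to 27.3 CPM in scramble and 11.3 to 12.1 CPM in KD, with CDH5 at 0 to 3 counts. The 10 stromal or preadipocyte markers summed to 3950 to 4443 CPM in scramble and 4227 to 4987 CPM in KD. Without LPS, 4 of 9 tested were higher and 3 lower, beside 12.1% and 15.1% of all genes. The part of these marker shifts in the complement results was not tested.

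The genes most like each of the 9 were ranked by Pearson's r of log2 CPM over the 12 libraries, among about 12019 other genes with a mean of at least 1 CPM. The 12 points fall into 4 groups that share treatments, so r is a description. CFB was most like NFKB1 (0.992), MAP3K8 (0.991) and TNFAIP3 (0.988). CFD was most like DCLK1, SLIT3 and HSPB6 (each 0.993), and SERPING1 was most like TOM1L2 (0.996), EPHX1 (0.996) and GSN (0.995). C1R was most like COL4A5 (0.979), MFGE8 (0.977) and CST3 (0.975), whereas C1S was most like ERAP1 (0.964), LAMA2 (0.950) and LSS (0.946). For C3 the most similar genes were MFAP4 (0.903), VGLL4 (0.896) and EIF4E3 (0.896), for CD55 they were SMURF1 (0.866), PAX8 (0.860) and PLCB1 (0.856), and for CD59 they were MTHFD1L (0.948), FH (0.937) and RAI14 (0.932). WDFY3 (0.945), SUGT1 (0.931) and ANAPC13 (0.920) were the nearest to CFI, whose counts are low.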

How the data were processed

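RNA-seq was done on 12 libraries of ASC52telo hTERT adipocytes, 3 per group. Per the submitters' processing notes and the methods, the authors used bcl2fastq 2.19, pseudoaligned reads with kallisto 0.44.0 to GRCh38 transcripts and used DESeq2 1.32.0. They deposited estimated counts summed per gene name, as whole numbers with no normalization. The annotation release, the summing program and kallisto's strand setting are not given in the sources used here. Counts in a row with no gene name, 0.235% to 0.306% of a library, were left out. The members, lists and tests were chosen with earlier results of these data known.

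In R 4.3.3, genes with at least 10 counts over the libraries fitted were kept, and edgeR 4.0.16 scaled libraries by TMM and each gene was tested by the quasi-likelihood F test (p-values adjusted by Benjamini-Hochberg over all genes). A standard error is the log2 fold change divided by the square root of F, and intervals are 95%. Genes past an adjusted p of 0.05 are called. The thresholds of 10 counts, 0.05 and 2-fold are those of the study's methods. Each comparison of groups used its 6 libraries, and the interaction used all 12. With 3 libraries against 3, an exact permutation test gives no two-sided p below 0.1, and those computed for the ratios are not reported. log2 CPM for the ranking of similar genes used a prior count of 2. Alternatives were other scalings and filters on low counts, DESeq2 1.42.0, a block for the replicate number, all 12 libraries in one fit, and leaving out each library. The steps were tested on simulated data. Replicates of a group differed by more than sampling noise. The floor of 3 counts covers counting error only.

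Named were the 9 genes, other complement genes averaging 50 counts or more, the listed transcription factors that passed, and the 3 most similar genes to each. A few genes of these lists are not reported here. Positions and transcript lengths come from GENCODE release 44, and promoter sequences from RefSeq.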

Additional observations from a re-analysis of the deposited data

Results flagged for a closer look

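The effects of 2 genes differed between groups by the interaction test on all 12 libraries. For CFB the log2 fold change of linc-ADAIN KD was -0.33 without LPS, which did not pass, and 0.69 with LPS. The interaction of CFB was 1.03, and its rise with LPS was seen in all libraries of both shRNAs. For CD55 the log2 fold change of KD was -0.13 without LPS, which did not pass, and 0.60 with LPS. The interaction of CD55 was 0.73, and its response to LPS was negative in scramble and positive in KD. Both interaction calls were lost when certain single libraries were left out, as given with the values above.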

How the results depend on the processing

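Of 45 values (9 genes in 5 comparisons), 19 kept their direction and their side of the threshold in every alternative run, and CFD, SERPING1, C1R and CFB kept their calls in each comparison of groups where they were called. The labels do not say whether equal replicate numbers mark paired libraries. Correlations of same-numbered deviations ran from -0.103 to 0.232, and no comparison had all 3 over 0.1. For LPS in scramble they were 0.232, 0.0743 and 0.0516. Such small values, of both signs, do not settle the pairing. A replicate block moved genes passing from 2274 to 3260 for LPS in scramble and 1835 to 2238 for LPS in KD. For KD they moved from 4411 to 3857 without LPS and from 4292 to 4636 with LPS. With the replicate number as a block, 5 of the 9 genes passed for LPS in scramble (2 without it), where C3 (adjusted p = 0.011), C1S (0.041) and SERPING1 (0.0041) were added, CFI passed for KD without LPS (0.034) and C1S did not (0.057). DESeq2 gave 4 for LPS in scramble, and library size scaling and the fit on all 12 libraries gave 1 for LPS in KD. When single libraries were left out, the members passing ranged from 3 to 5 for KD without LPS and 6 to 8 for KD with LPS. They ranged from 1 to 3 for LPS in scramble, 1 to 2 for LPS in KD and 0 to 2 for the interaction. All genes passing then ranged from 3181 to 4167 for KD without LPS (4411 with all) and 3377 to 4033 with LPS (4292 with all). For LPS in scramble the range was 1187 to 2106 (2274 with all), and for the interaction it was 92 to 243 (219 with all). The interaction gave 431 genes with no filter on low counts and 475 by DESeq2. Fewer libraries were fitted when one was left out, and other causes were not tested.

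Scaling by library size moved the median of all genes from 0.02 to 0.13 for KD without LPS and the share of calls that were higher from 44.5% to 61.4%. That share moved from 47.2% to 59.2% for KD with LPS and from 46.9% to 35.2% for LPS in KD. For LPS in scramble it went from 41.3% to 32.7%, and to 51.2% under upper quartile scaling, and upper quartile scaling moved it from 74% to 62.9% for the interaction. CD59 in KD without LPS turned to 0.078 under library size scaling and 0.033 under upper quartile.

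Leaving out single libraries turned the sign of 11 further values, none of them called. Their ranges were -0.10 to 0.25 for C3 and KD without LPS, -0.00281 to 0.10 for CD59 and KD with LPS, -0.065 to 0.21 for CFD and -0.015 to 0.40 for C1R and LPS in scramble, and -0.26 to 0.23 for CFD, -4.75 to 5.11 for CFI and -0.17 to 0.049 for SERPING1 and LPS in KD. For the interaction they were -0.25 to 0.18 for C1R, -0.073 to 0.075 for C1S, -0.37 to 0.13 for CFD and -4.411 to 5.6 for CFI. edgeR's filterByExpr removed CFI for LPS in KD, so that value could not be had. CFI rests on few counts, as do the receptor and C1q genes, and the part of depth in this was not tested.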

Other observations

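Protein-coding neighbours of the 9 genes on the chromosome were read in the same fits. FSTL3, which lies before CFD, fell by 1.19 in KD without LPS (adjusted p = 9e-06) and by 0.81 with LPS, and PTBP1 fell by 0.46 (adjusted p = 0.0041), whereas R3HDM4 after it had a log2 fold change of 0.26 (adjusted p = 0.027). Around SERPING1, TIMM10, UBE2L6 and ZDHHC5 fell by 0.31, 0.38 and 0.22 without LPS, each less than SERPING1. LPCAT3, a phospholipid-remodelling enzyme gene that overlaps the annotated extent of C1S, fell by 0.79 without LPS (adjusted p = 0.00057) and by 1.197 with LPS. HIPK3, which lies at lower coordinates than CD59, on the 3′ side of that minus-strand gene, fell by 1.29 without LPS (adjusted p = 7.9e-06). KIAA1549L, between HIPK3 and CD59, had a log2 fold change of -0.12 (adjusted p = 0.54), and CD59 had -0.03. Near C3, which had 0.05 without LPS, SLC25A23 fell by 1.475 (adjusted p = 4.8e-05) and GPR108 rose by 0.44 (adjusted p = 0.0027). Near CFI, ELOVL6 fell by 0.79 and GAR1 by 0.63 without LPS. These neighbours were looked up after the values of the 9 genes were seen.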
